A study of Mus musculus with 16 samples.

Results

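Collagens and other genes of the extracellular matrix were followed through the promoter contacts of mouse embryonic stem cells and epiblast-like cells. Their promoter fragments were chosen by gene symbol alone: collagen chains (Col followed by chain numbers), laminin chains, fibulins, Adamts and Mmp proteases, and Fn1, Dpt, Lum, Fbn1 and Fbn2. The rule found 81 promoter fragments of 20017, with 996 of the 260860 listed interactions. They comprised 32 collagens, 9 laminins, 4 fibulins, 16 Adamts genes, 16 Mmp genes and Dpt, Lum, Fbn1 and Fbn2. Fn1 and 25 further listed genes of these families, among them Mmp2 and most type IV collagens, were not analysed here.

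The assay was promoter-capture Hi-C, in which promoter fragments of a HindIII digest are pulled out together with the DNA ligated to them in fixed nuclei. Embryonic stem cells (ESC, day 0) were kept in 2i and Lif, which hold them in a naive state, and epiblast-like cells (EpiLC, day 2) were derived from them. The 4 lines were DNMT_KO, in which Dnmt1, Dnmt3a and Dnmt3b are all knocked out, TET_KO, in which Tet1, Tet2 and also Tet3 are, and DNMT_WT and TET_WT, the parental wild-type line of each. The labels give 16 samples, 2 replicates in each of 8 groups of line and stage. The values, however, are 1 column per group, so no column has an SD, its depth is unknown, and a knock-out cannot be told apart from its single line. No gene expression was among the values used, so the labelled cell types were not checked against marker genes. Values of the 4 lines are given below in the order DNMT_WT, DNMT_KO, TET_WT, TET_KO.

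Collagens are the main fibrous proteins of connective tissue, and their chains assemble into helices that form fibrils, networks or microfilaments. Laminins, with type IV collagen, build basement membranes, the sheet on which the epiblast becomes an epithelium. Mmp and Adamts proteases cut matrix proteins, and fibulins and fibrillins belong to elastic fibres. The Dnmt enzymes methylate cytosine in CpG dinucleotides, and the Tet enzymes oxidise that mark as a step in its removal.

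RefSeq promoter windows (GRCm38.p6, 250 bases before to 50 after the start) were matched by symbol for 50 of the 81 genes. Shown here are windows of 4 promoters whose contacts fell in EpiLC and of 2 with higher values in TET_KO, because the enzymes missing from both knock-out lines act on CpG. Capitals mark CpG, and all 6 windows lie within the captured fragment of their gene. They are chr10:61979059-61979358 (minus strand) for Col13a1, chr2:155775092-155775391 (plus) for Mmp24, chr4:155653335-155653634 (minus) for Mmp23, chr6:91212514-91212813 (plus) for Fbln2, chr7:66839485-66839784 (plus) for Adamts17 and chr3:130180595-130180894 (plus) for Col25a1.
Col13a1: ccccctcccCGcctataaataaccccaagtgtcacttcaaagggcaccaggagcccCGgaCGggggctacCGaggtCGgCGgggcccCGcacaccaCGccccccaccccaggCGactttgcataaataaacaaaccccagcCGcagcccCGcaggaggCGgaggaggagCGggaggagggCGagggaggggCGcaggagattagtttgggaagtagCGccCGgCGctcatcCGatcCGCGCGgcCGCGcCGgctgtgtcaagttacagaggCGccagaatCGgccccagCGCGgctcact
Mmp24: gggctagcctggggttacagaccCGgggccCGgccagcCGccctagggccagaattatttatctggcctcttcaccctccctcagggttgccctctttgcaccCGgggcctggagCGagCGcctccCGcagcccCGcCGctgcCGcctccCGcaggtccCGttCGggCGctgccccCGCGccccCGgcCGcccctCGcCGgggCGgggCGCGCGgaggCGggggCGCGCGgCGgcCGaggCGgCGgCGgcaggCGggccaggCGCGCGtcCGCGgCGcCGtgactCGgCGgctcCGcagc
Mmp23: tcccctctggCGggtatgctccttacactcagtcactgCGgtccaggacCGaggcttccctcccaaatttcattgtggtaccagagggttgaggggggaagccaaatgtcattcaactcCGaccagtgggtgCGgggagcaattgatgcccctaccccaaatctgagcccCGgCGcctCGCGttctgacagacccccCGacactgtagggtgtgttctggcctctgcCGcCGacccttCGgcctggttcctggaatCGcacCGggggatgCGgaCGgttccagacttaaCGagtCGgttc
Fbln2: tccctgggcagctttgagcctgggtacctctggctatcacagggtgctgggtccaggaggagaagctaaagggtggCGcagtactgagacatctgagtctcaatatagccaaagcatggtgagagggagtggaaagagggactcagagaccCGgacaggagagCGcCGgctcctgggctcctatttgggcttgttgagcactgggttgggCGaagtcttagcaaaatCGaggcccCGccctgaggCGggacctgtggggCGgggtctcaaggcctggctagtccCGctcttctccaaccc
Adamts17: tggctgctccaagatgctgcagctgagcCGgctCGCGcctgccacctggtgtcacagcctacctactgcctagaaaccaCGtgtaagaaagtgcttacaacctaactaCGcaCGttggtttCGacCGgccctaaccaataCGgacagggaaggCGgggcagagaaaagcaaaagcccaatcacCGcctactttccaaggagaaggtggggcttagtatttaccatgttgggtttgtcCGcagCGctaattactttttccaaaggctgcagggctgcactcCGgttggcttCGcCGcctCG
Col25a1: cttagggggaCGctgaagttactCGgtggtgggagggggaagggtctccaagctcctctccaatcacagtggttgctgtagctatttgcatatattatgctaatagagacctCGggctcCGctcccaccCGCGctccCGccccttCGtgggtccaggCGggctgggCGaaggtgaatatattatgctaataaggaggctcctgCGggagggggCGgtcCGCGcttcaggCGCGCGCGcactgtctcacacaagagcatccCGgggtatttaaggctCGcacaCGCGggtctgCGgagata
The windows differed widely in CpG. Mmp24 held 44 CpG, a number reached by 3.23% of all 9804 matched promoters. Col13a1 held 29 (19.2% of all promoters had as many), Col25a1 23 (32.6%), Mmp23 19 (42.9%), Adamts17 17 (48.4%) and Fbln2 10 (63.5%). Over the 50 matched genes the median was 12 CpG against 16 over all matched promoters, and 19 genes (38%) had an observed over expected CpG ratio of 0.6 or more against 53.7% of all. The windows of Col9a1, Col3a1 and Mmp12 held no CpG, and that of Adamts14 held 44, as many as Mmp24.

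Matrix gene promoters had as many listed interactions as other promoters, a median of 8 in both. Their interactions on 1 chromosome spanned a median of 361.7 kb, compared with 274.6 kb for all promoters. This median pools interactions, so promoters with many contacts weigh more, among them Adamts1 (50 contacts, own median 1435 kb) and Col9a2 (40, 1765 kb). By family it ran from 258.6 kb for Dpt, Lum, Fbn1 and Fbn2 and 272.6 kb for Mmp genes to 437.8 kb for Adamts genes. Medians per promoter were not compared. Scores are CHiCAGO scores, which measure how far an interaction exceeds the background for its distance. A score of 5 is the usual calling threshold, and each listed interaction reaches it in at least 1 column. Of the 996 interactions 69 (6.93%) reached 5 in all 8 columns, near the background of 6.7% over all interactions. In 1 column only, 426 (42.8%) reached 5, against 44.0% of all interactions. Some 611 (61.3%) ended inside a RefSeq gene, 96 of them inside the gene whose promoter was captured. These shares were not taken over all interactions. Of 30 contacts of Adamts12, 19 ended in Adamts12 itself, as did 19 of 35 for Col25a1, 17 of 31 for Col14a1 and 9 of 13 for Col13a1.

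Adamts8, a protease that cuts proteoglycans, had the highest scores among contacts listed from member promoters, and it was singled out after its values were seen. Its fragment (chr9:30940443-30946115, GRCm38) had 44 contacts, of which 27 reached 5 in all 8 columns. A stretch of 12 contacts 456.3 to 505.6 kb away, over the gene Snx19 (chr9:30437213-30487293), had median scores of 17.6, 15.5, 17.0 and 24.0 in ESC against 18.8, 20.1, 18.7 and 20.1 in EpiLC. Of these 12, 11 reached 5 in every column. The highest single score, 34.6 in TET_KO EpiLC, was that of the fragment 456.3 kb away, which scored 27.7, 24.2, 14.6 and 24.0 in ESC against 15.5, 34.5, 27.7 and 34.6 in EpiLC. Adamts15, a neighbour that also encodes a proteoglycan-cutting protease, shared 33 of its 35 other ends with Adamts8 (94.3% of its own, 75% of those of Adamts8). Its 13 contacts in the stretch of 431.6 to 486.8 kb over Snx19 scored lower, with medians of 4.92 to 6.84 over the columns.

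Col12a1 and Adamts1 also reached far. Col12a1 codes for a collagen that coats type I fibrils, and its fragment (chr9:79708468-79721012) had 54 listed contacts, the most of any collagen. A stretch of 6 contacts 920 to 941.2 kb away (chr9:78772923-78795490) had median scores of 8.04 to 19.8, and 10 contacts ended in Cd109. Adamts1, which cuts the proteoglycans aggrecan and versican, had 50 contacts at a median distance of 1435 kb, 37 of them over 1 Mb away. Its strongest lay 1429 to 1443 kb away on chromosome 16 (87230309 to 87244521), 7 contacts with medians of 5.61, 6.43, 7.19 and 6.96 in ESC against 7.60, 5.49, 10.3 and 8.03 in EpiLC.

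**Figure D1:**
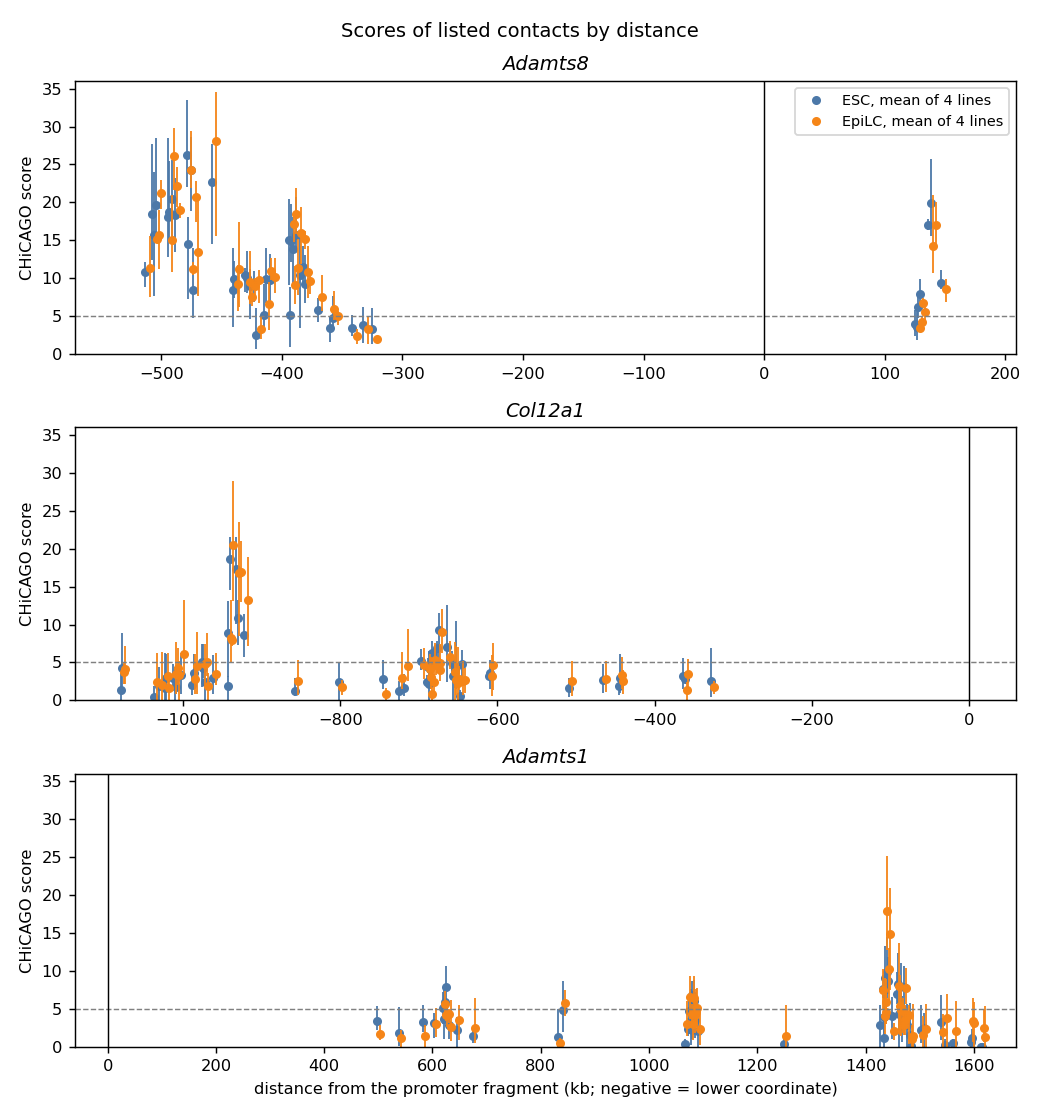
CHiCAGO score of each complete listed contact (vertical axis) against its distance from the promoter fragment in kb (horizontal axis) for Adamts8, Col12a1 and Adamts1. Points are means and lines the range over the 4 lines, shifted slightly sideways to keep ESC and EpiLC apart, and the dashed line is a score of 5. Adamts8 stands over 20 at several fragments at both stages, Col12a1 peaks about 920 to 941.2 kb away, and Adamts1 at 1429 to 1443 kb.

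Other members with many contacts were Lamc1, Mmp15, Fbln5 and Fbn1, the richest of their families. Lamc1, the gamma chain of most laminins, had 52 contacts, with 16 of them in Nmnat2. Mmp15, a membrane-bound metalloproteinase, had 50, among them 6 each in Csnk2a2 and Ndrg4. Fbln5, needed for elastic fibre assembly, had 11, as did Fbn1, the main fibrillin of microfibrils. At the other end of the range, Lum, a small proteoglycan that orders collagen fibrils, and Fbn2 had 1 contact each, both at 5 or more in TET_KO EpiLC alone (5.12 and 5.19).

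The Mmp cluster on chromosome 9 shared part of its contacts. Of 8 promoters there, Mmp8, the neutrophil collagenase, had 8 contacts, and all 8 were also listed for Mmp27, which had 18. Mmp7, or matrilysin, had 6, all of them also among the 17 of Mmp20, the enamel protease. Mmp27 and Mmp20 shared 5, and the 2 contacts of the stromelysin Mmp10 both lay among those of Mmp8 and Mmp27. Mmp13, an interstitial collagenase, shared 1 of its 14 contacts, with the elastase Mmp12. The stromelysin Mmp3 shared none of its 3, but 1 of them was the promoter of Mmp10 itself, with scores of 4.93, 5.58, 4.08 and 5.09 in ESC against 3.17, 2.3, 4.17 and 4 in EpiLC.

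Contacts between 2 member promoters were also listed for type VI collagen, whose chains form beaded microfilaments. Col6a1 was in contact with Col6a2, 100.7 kb away, at scores of 5.92, 4.09, 2.91 and 5.17 in ESC against 4.48, 5.72, 4.26 and 11.9 in EpiLC. Col6a6 was in contact with Col6a4, 268.1 kb away, at 3.53, 5.6, 4.16 and 2.62 in ESC against 2.63, 7.68, 2.16 and 3.75 in EpiLC. Neither reached 5 in every column.

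Member promoters were also reached from other captured promoters, in 91 interactions with 17 members at the other end. The strongest joined Mmp24, a membrane-bound metalloproteinase of the nervous system, and Procr, 17.5 kb away, at 47.4, 34.3, 32.5 and 32.5 in ESC against 30.2, 24.9, 32.5 and 34.5 in EpiLC. Mmp24 was also reached from Acss2 at 11.6 to 22.5 and from Ncoa6 at 10.7 to 16.3. Mmp7 was reached from 1700128F08Rik at 10.3 to 17.7, over 531.7 kb. Col6a2 was reached from Mcm3ap at 2.17, 6.58 and 6.27 in the 3 ESC columns with a score and at 5.56, 12.6, 14.3 and 15.4 in EpiLC. None of the 64 such interactions with all 8 scores passed the stage test below, and 11 (17.2%) had an unadjusted limma p under 0.05, against 16.6% of all contacts. All 17 interactions that had Lamb2, a laminin beta chain, at the other end lacked a score in the 4 TET_WT and TET_KO columns, whereas the 10 listed from Lamb2's own fragment had all 8.

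The first comparison asks which matrix gene promoters gained or lost contacts as ESC became EpiLC. A promoter's value was the mean inverse hyperbolic sine (asinh) of the scores of its listed interactions, a scale close to the natural logarithm for high scores. Of the 63 member promoters with at least 3 complete interactions, Col22a1 rose and Dpt, Fbln2, Col13a1, Mmp23 and Mmp24 fell. The 1 rise compares with 3.73% of all 15677 promoters and the 5 falls with 5.14%. The remaining 57 did not pass. The test was limma with cell line as a block, and adjusted p-values cover all promoters. By family, the rise and 1 fall were among 27 collagens, 1 fall was among 4 fibulins, 2 among 12 Mmp genes and 1 among Dpt and Fbn1. No promoter of 4 laminins or 14 Adamts genes passed. Listing bears on these tests, since an interaction is listed only if it reaches 5 in some column. All 3 listed contacts of Dpt and all 4 of Fbln2 reached 5 in ESC columns alone, and all 3 of Col22a1 in EpiLC columns alone, so the listing itself set the direction of these differences, and their p-values do not support it independently. Of the complete contacts of Col13a1, 8 of 13 reached 5 in ESC alone and 1 in EpiLC alone. The same numbers were 2 and 1 of 6 for Mmp23 and 4 and 1 of 14 for Mmp24. Over all member contacts 53.9% reached 5 at a single stage, and 56.0% did over all promoters. The median difference of the 63 was 0.0154 against −0.0105 over all promoters, and 36 were positive and 27 negative.

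Dpt encodes dermatopontin, a small protein that binds decorin and helps collagen fibrils form. Its values were 2.10, 1.67, 1.63 and 1.63 in ESC against 0.822, 0.512, 0.473 and 0.315 in EpiLC. Every ESC value lay above every EpiLC value. The difference, EpiLC minus ESC, was −1.23 ± 0.230 (SE, 4 lines, limma adjusted p = 0.0108). It rests on 3 contacts 404.8 to 456.8 kb away, all in Nme7, each listed through 1 ESC column. The contact 443.2 kb away, for example, scored 3.75, 0.727, 2.62 and 6.65 in ESC against 1.95, 0.219, 0.967 and 0.106 in EpiLC.

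Fbln2 encodes a fibulin of basement membranes and elastic fibres. It had values of 2.16, 2.04, 2.32 and 1.35 in ESC against 1.55, 1.35, 1.70 and 1.19 in EpiLC. The value fell in each of the 4 lines, but TET_KO ESC lay among the EpiLC values. The difference was −0.521 ± 0.154 (SE, limma adjusted p = 0.0449), over 4 contacts, of which 2 ended in Iqsec1 and 1 in Wnt7a. Col13a1, a transmembrane collagen of neuromuscular junctions and other adhesion sites, went from 1.98, 2.34, 1.84 and 2.24 to 1.78, 1.60, 1.39 and 1.89. Its stages overlapped too, and the difference was −0.434 ± 0.128 (SE, limma adjusted p = 0.0447). The number of Col13a1 contacts at 5 or more went from 5, 8, 1 and 7 in ESC to 0, 0, 1 and 4 in EpiLC.

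Mmp23 and Mmp24 are both membrane-anchored metalloproteinases. Mmp23 had values of 2.36, 2.35, 2.27 and 2.06 in ESC against 2.20, 1.94, 1.71 and 1.49 in EpiLC, a difference of −0.422 ± 0.107 (SE, limma adjusted p = 0.0258). It was lower in EpiLC in every line, with overlap between the stages. Its nearest contact lay in Mib2, 6.9 kb away, and scored 5.10, 8.05, 5.17 and 5.57 in ESC against 6.06, 5.39, 2.45 and 3.31 in EpiLC. Mmp24 had values of 2.43, 2.64, 2.71 and 2.31 in ESC against 2.25, 2.29, 2.12 and 2.05 in EpiLC, without overlap. Its difference was −0.343 ± 0.0938 (SE, limma adjusted p = 0.0336). The strongest contact of Mmp24, in Ggt7 262.6 kb away, stayed above 10 in all 8 columns (11.0 to 20.1).

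Col22a1, a collagen of tissue junctions such as that between muscle and tendon, was the one that rose. Its values were 1.37, 0.321, 1.13 and 0.822 in ESC against 1.84, 1.67, 1.41 and 2.03 in EpiLC. The stages did not overlap, and the difference was 0.828 ± 0.233 (SE, limma adjusted p = 0.0371). Only 3 contacts enter, 973 to 1031 kb away around Trappc9, each listed through EpiLC columns alone.

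**Figure D2:**
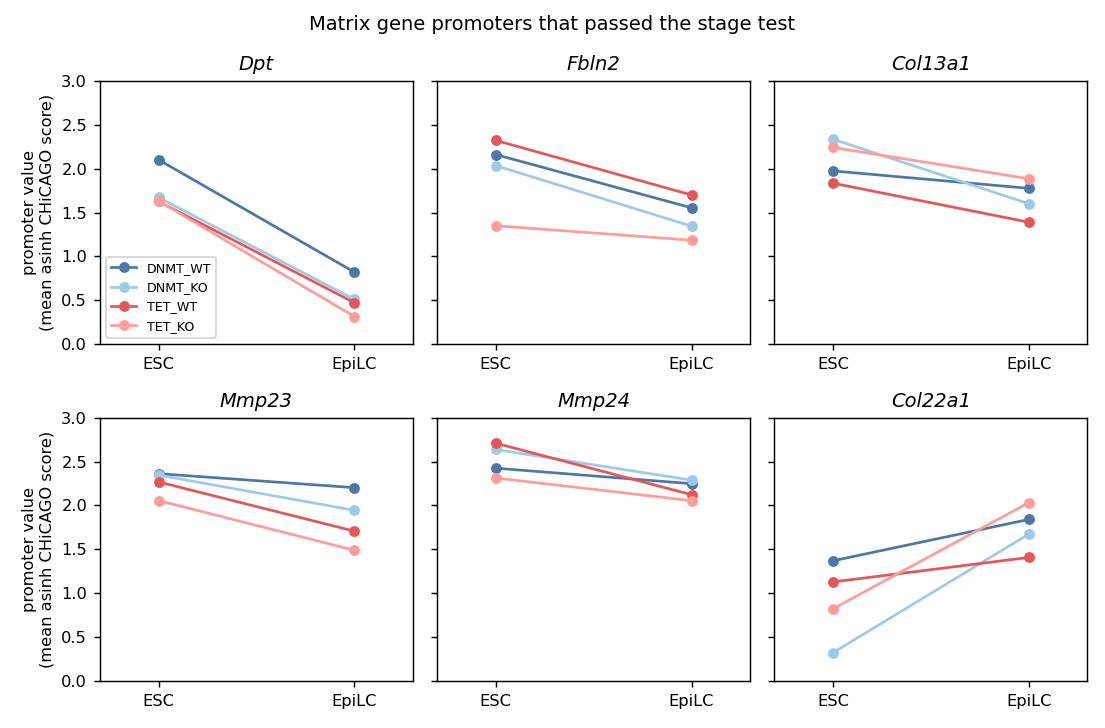
Promoter value (mean asinh CHiCAGO score, vertical axis) in ESC and EpiLC for the 6 matrix gene promoters that passed the stage test, with 1 line per cell line. Dpt falls from 1.63 or more to 0.822 or less in every line, and Col22a1 goes up in every line.

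Fewer of these promoters passed when a line was left out. With DNMT_KO left out none of the 6 did, although all kept their direction. Differences of 3 hardly moved there, to −1.25 for Dpt (limma adjusted p = 0.0518), −0.429 for Mmp23 and −0.341 for Mmp24, while that of Col22a1 was 0.654, of Fbln2 −0.465 and of Col13a1 −0.334. With DNMT_WT left out 3 passed, among them Dpt, and with TET_WT or TET_KO left out 2 passed, again with Dpt. Calls over all promoters dropped from 1391 to 25 without DNMT_KO, 615 without DNMT_WT, 463 without TET_WT and 375 without TET_KO.

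Promoters that did not pass include some with sizeable differences. Col1a2, a chain of type I collagen, had 1.11, 1.03, 1.24 and 1.16 in ESC against 1.96, 1.33, 1.58 and 1.95 in EpiLC, a difference of 0.567 ± 0.2 (SE, limma adjusted p = 0.0797) without overlap. Its contacts at 5 or more numbered 1, 0, 0 and 0 in ESC against 4, 0, 2 and 8 in EpiLC. The direction and the lack of overlap are therefore not independent of the listing. Its partner chain Col1a1 had a difference of −0.184 ± 0.101 (limma adjusted p = 0.246). In the Mmp cluster, the differences were −0.339 ± 0.126 for Mmp8, −0.242 ± 0.0997 for Mmp13 and 0.202 ± 0.101 for Mmp7 (limma adjusted p = 0.0936, 0.127 and 0.204). For each of these 3 genes the stages did not overlap. Nor did they for Col3a1, whose difference was −0.169 ± 0.119 (limma adjusted p = 0.372). How many of all promoters lack overlap was not counted, so the lack of overlap here and above has no background. Adamts16 had the largest negative difference of the Adamts genes with the same direction in 4 lines, −0.339 ± 0.145 (limma adjusted p = 0.141). Fbln5 (−0.116 ± 0.165), Fbn1 (0.0317 ± 0.128), Lamc1 (0.0165 ± 0.114) and Mmp15 (0.101 ± 0.0926) differed by less than their standard error or little more.

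By molecular class, the 7 fibrillar collagens with a value had a median difference of 0.152 (5 positive) and the 6 type VI chains 0.146 (4 positive). The 2 collagenases had −0.291 and the 2 procollagen-trimming Adamts proteases −0.186, both negative in each member. The 5 proteoglycan-cutting Adamts proteases had 0.082 and were positive in each, against 48.2% positive over all promoters. Each of these 5 differences was smaller than its SE, and Adamts8 was lower in EpiLC in 3 of the 4 lines. No promoter of these classes passed the test. Classes this small were not tested as groups.

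**Figure D3:**
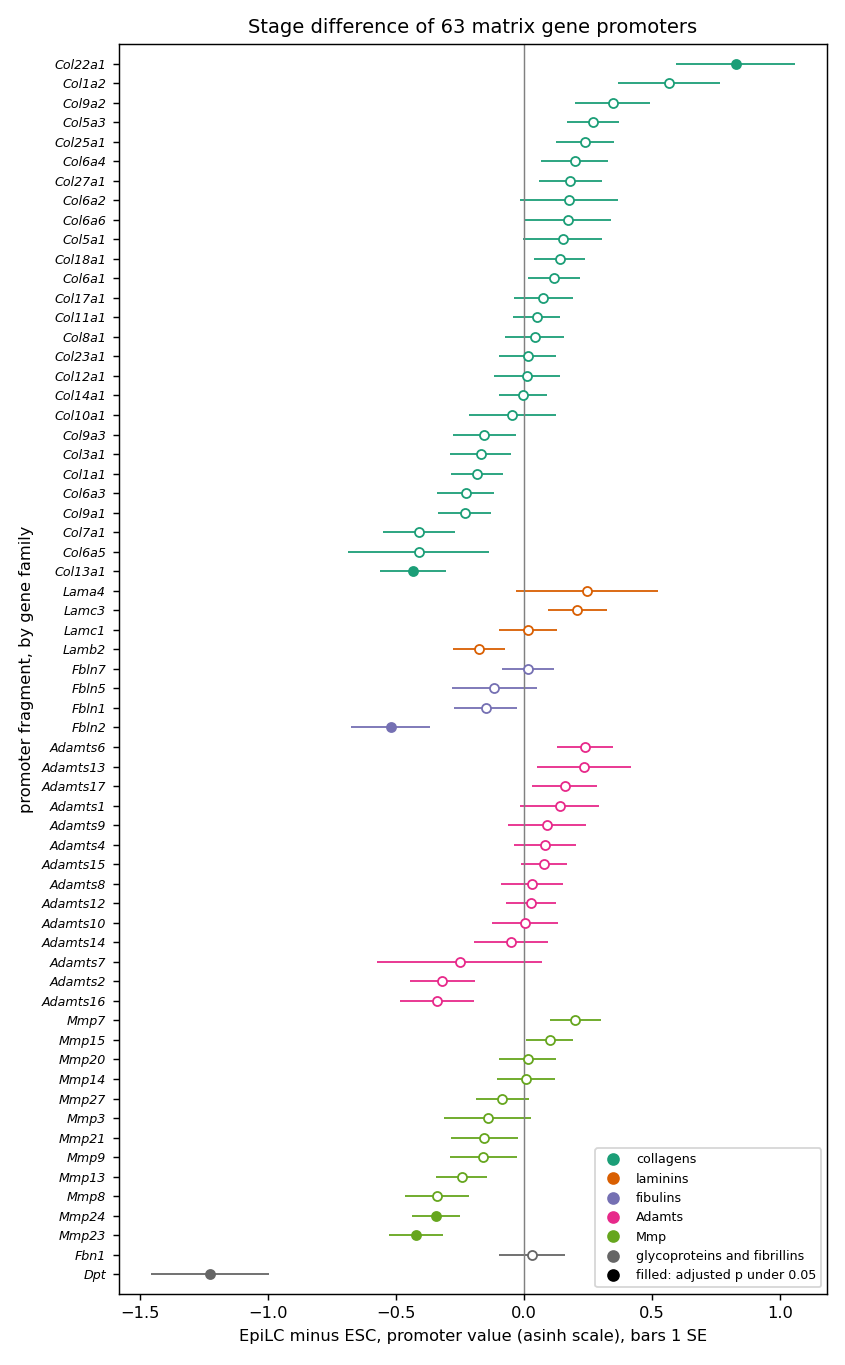
EpiLC minus ESC difference in promoter value (asinh scale, horizontal axis) for the 63 tested matrix gene promoters, grouped by family. Bars are 1 SE and filled points passed the test. Most points lie within 0.5 of 0, with Dpt at −1.23 and Col22a1 at 0.828 at the ends.

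Other matrix genes, from a list of 86 that holds proteoglycans, glycoproteins, receptors and collagen-processing enzymes, gave similar counts. Of 60 with a value, 1 rose (1.67%, against 3.73% of all promoters) and 4 fell (6.67%, against 5.14%). Matn2, a matrilin adaptor protein, rose by 0.5 ± 0.115 (SE, limma adjusted p = 0.0184). The falls were the small proteoglycans Fmod (−0.442 ± 0.101) and Prelp (−0.441 ± 0.111), the glycoprotein Thbs1 (−0.419 ± 0.119) and the elastic microfibril protein Mfap2 (−0.385 ± 0.102), with limma adjusted p of 0.0181, 0.0252, 0.0386 and 0.0299. Of 12 matrix receptors with a value none passed, and 9 were positive, against 48.2% of all promoters. This class was not tested as a group.

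Of the 973 single member contacts with all scores, 1 rose and none fell, against 0.204% and 0.109% of all 244865 contacts within chromosomes. At an unadjusted limma p under 0.05 there were 124 (12.7%, against 16.6% of all contacts). The rise was that of Col12a1 with the fragment chr9:78774182-78774400, 940.4 kb away and outside RefSeq genes. This contact was listed through EpiLC columns alone, which set the direction of its difference. It scored 3.14, 3.25, 1.06 and 0 in ESC against 7.65, 8.84, 7.21 and 7.96 in EpiLC, a difference of 1.53 ± 0.295 on the asinh scale (SE, limma adjusted p = 0.0373). The adjoining fragment chr9:78774401-78777037 was high at both stages, at 20.9, 17.6, 14.6 and 21.5 in ESC against 20.9, 13.1, 19.0 and 28.9 in EpiLC. Leaving out any 1 line took the rise above the threshold (limma adjusted p from 0.123 to 0.359). The next contacts were Col13a1 with a fragment inside its own gene 110.6 kb away (−0.795 ± 0.170, limma adjusted p = 0.0508) and Adamts1 with its strongest fragment 1438 kb away (0.675 ± 0.150, limma adjusted p = 0.0574). The latter scored 5.61, 9, 8.57 and 13.3 in ESC against 12.8, 13.5, 20.1 and 25.2 in EpiLC.

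A stricter count used contacts at 5 or more in all 4 columns of a stage and under 5 in the other 4, which holds for 0.498% of all contacts in the EpiLC direction and 0.371% in the ESC direction. In members it gave 2 each way. For EpiLC these were the Col12a1 contact above and Mmp7 with a fragment in Birc3, 172.8 kb away, at 3.48, 2.46, 4.51 and 3.52 in ESC against 5.07, 6.78, 5.40 and 6.16 in EpiLC. Those of ESC were Adamts14, a procollagen-trimming protease, with a fragment of its own gene 12.5 kb away, and Mmp24 with a fragment in Trpc4ap 116.1 kb away. The Mmp24 contact scored 5.61, 7.38, 6.48 and 5.37 in ESC against 4.53, 4.02, 3.02 and 3.55 in EpiLC.

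Contacts of 1 to 10 Mb at 5 or more numbered 19, 14, 11 and 31 for members in ESC against 27, 21, 23 and 43 in EpiLC, higher in EpiLC in all 4 lines, as they were over all promoters (1515, 2184, 2083 and 3288 against 4362, 4129, 3572 and 4482). Col9a2, a chain of type IX collagen, contributed 21 contacts 1756 to 2507 kb away, over Ppt1, Cap1, Mycl and Trit1 on chromosome 4. Of these, 2, 0, 0 and 3 reached 5 in ESC against 5, 5, 3 and 7 in EpiLC. Seen from the Ppt1 promoter, the contact with Col9a2 scored 0.99, 0, 5.33 and 0.57 in ESC against 7.36, 3.07, 10.2 and 5.82 in EpiLC, just short of the threshold (1.55, limma adjusted p = 0.0505). All 9 listed contacts of Lama4, a laminin alpha chain, were of this kind, 1744 to 2058 kb away and 5 of them in Hdac2. These scored 5 or more in 1, 0, 0 and 3 cases in ESC against 1, 1, 3 and 3 in EpiLC.

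The second comparison sets DNMT_KO against DNMT_WT, 1 column each at either stage, so it has no test. Differences of 0.693, a doubling for high scores, were counted. In ESC 1 member of 63 was higher (Adamts7, 0.926) and 1 lower (Col22a1, −1.05), against 2.09% and 2.14% of all promoters. In EpiLC 2 were higher (Col10a1, 0.785, and Col6a5, 0.720) and 1 lower (Adamts7, −1.02), against 1.35% and 1.15%. All 4 genes have 3 complete contacts each, and Adamts7 changed sides between the stages. Listing bears on such differences as on the stage test. Of the Col10a1 contacts, 2 reached 5 in DNMT_KO EpiLC and 0 in DNMT_WT EpiLC, while for Col6a5 both columns had 0. The wild-type lines differed from each other as far for no member in ESC and for 2, Adamts7 and Col6a5, in EpiLC, against 4.11% and 4.88% of all promoters either way.

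Among members with at least 10 contacts and the same sign at both stages, the largest DNMT_KO differences were modest. On the lower side came Col1a2, with a mean of −0.351 (−0.072 in ESC, −0.63 in EpiLC), then Adamts9 (−0.218), Adamts6 (−0.197), Col9a1 (−0.154) and Col25a1 (−0.141). Mmp9, the gelatinase that cuts type IV collagen, was higher by 0.219 (0.383 in ESC, 0.055 in EpiLC), followed by Mmp13 (0.187), Adamts17 (0.159), Adamts1 (0.158) and Adamts15 (0.149). For comparison, the SD of the difference between the wild-type lines, averaged over the stages, was 0.247 over all promoters. Of these 10 means only that of Col1a2 was larger than this in size. None of the Col1a2 contacts reached 5 in a DNMT_KO column, against 1 in DNMT_WT ESC and 4 in DNMT_WT EpiLC. The direction for Col1a2 is therefore not independent of the listing. With TET_WT in place of DNMT_WT the mean of Col9a1 turned to 0.134, that of Adamts9 was −0.427, that of Adamts15 0.0156, that of Adamts17 0.0891, that of Col25a1 −0.0748 and that of Col1a2 −0.230. By column, the Col1a2 value of 1.33 in EpiLC for DNMT_KO stood below 1.96, 1.58 and 1.95 in the other lines.

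The third comparison sets TET_KO against TET_WT. TET_KO had more member contacts at 5 or more than TET_WT, 406 against 311 in ESC and 454 against 367 in EpiLC. The ratios, 1.31 and 1.24, compare with 1.08 and 1.07 over all promoters. DNMT_KO against DNMT_WT gave 311 against 346 in ESC and 330 against 307 in EpiLC. TET_KO had more contacts at 5 or more than TET_WT at 40 of 81 promoters at each stage, fewer at 17 in ESC and at 15 in EpiLC, and as many at the rest. The same count by promoter was not made over all promoters. Over all promoters TET_KO also had more such contacts, 93568 against 86557 in ESC and 100796 against 93930 in EpiLC. Collagens had 103 in TET_WT and 157 in TET_KO in ESC, then 141 and 196 in EpiLC. Adamts genes had 84 and 142 in ESC, then 113 and 152 in EpiLC. Mmp genes had 71 in TET_WT and 70 in TET_KO in ESC, then 78 and 59 in EpiLC. Laminins had 45 and 17 in ESC, then 29 and 27 in EpiLC. The ratio of TET_KO to TET_WT was also taken with Col25a1, Adamts17, Adamts1 or Lamc1 left out in turn. It then ranged from 1.27 to 1.44 in ESC and from 1.2 to 1.27 in EpiLC. Over all promoters in ESC, TET_KO had 3288 contacts at 5 or more against 2083 in TET_WT at 1 to 10 Mb. Under 100 kb it had 13430 against 15213. Members had 9.54% of their interactions at 1 to 10 Mb and 7.03% under 100 kb, against 5.76% and 14.4% of all interactions. Depth of the columns is unknown, and the part of depth or distance in these counts was not tested.

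**Figure D4:**
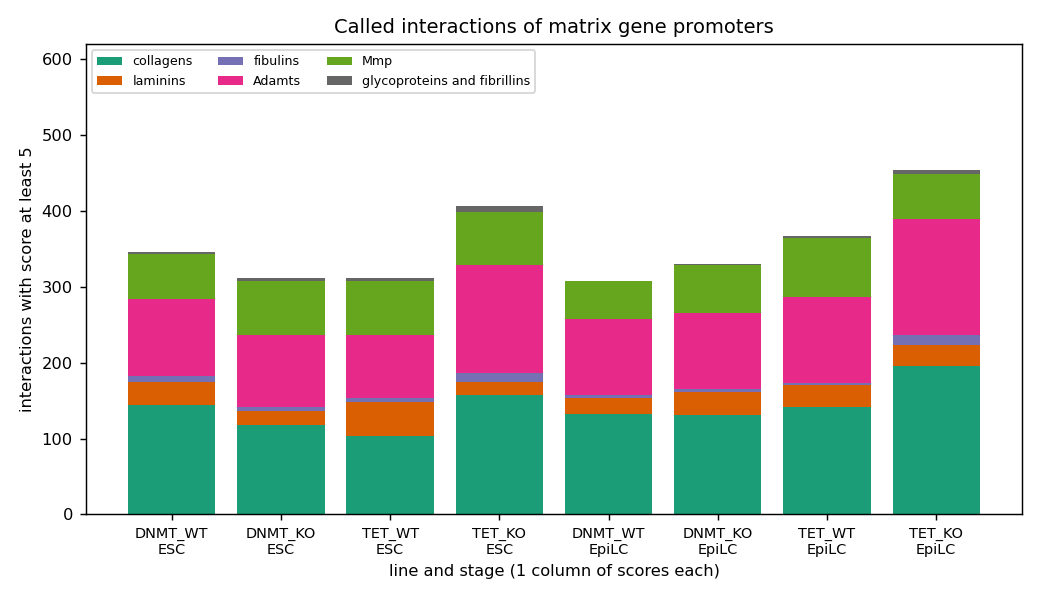
Number of member interactions with a CHiCAGO score of 5 or more (vertical axis) in each of the 8 columns, stacked by family. TET_KO has the highest bar at each stage, 406 in ESC and 454 in EpiLC, with more contacts of collagens and Adamts genes than TET_WT.

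By promoter value, 1 member was higher by a doubling in TET_KO ESC (Adamts17) and 1 lower (Fbln2, −0.973), against 3.37% and 2.25% of all promoters. In EpiLC Adamts13, which cuts von Willebrand factor, was higher by 0.995 and Col6a2 by 0.809, and Mmp3 was lower (−1.02), against 3.6% and 2.54%. Each of these counts is a smaller share of the 63 than that of all promoters. Listing bears on these differences as on the stage test. All 4 Col6a2 contacts reached 5 in TET_KO EpiLC, against 1 in TET_WT EpiLC and 0 in every other column. Adamts13 had 3 such contacts in TET_KO EpiLC and 0 in TET_WT EpiLC. Fbln2 had 3 in TET_WT ESC and 0 in TET_KO ESC. The directions for these genes are therefore not independent of the listing. Medians of the 63 differences were 0.0783 in ESC and 0.0641 in EpiLC, against −0.00411 and 0.0112 over all promoters.

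Adamts17, a protease mutated in a human short-stature and lens disorder, had the largest difference of the members with at least 10 contacts. Its values were 1.62, 1.92, 1.56 and 2.40 in ESC against 1.89, 1.90, 2.09 and 2.26 in EpiLC, and TET_KO was the highest line at both stages. TET_KO exceeded TET_WT by 0.843 in ESC and 0.176 in EpiLC. Its contacts at 5 or more numbered 3, 4, 2 and 14 in ESC against 6, 3, 7 and 12 in EpiLC, out of 20 that lie 307.1 to 804.7 kb away, 10 of them in Lrrc28. The CpG of its promoter window are in the sequence above.

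Col25a1, a transmembrane collagen of neurons, had 1.93, 1.79, 1.71 and 2.02 in ESC against 1.99, 1.85, 2.08 and 2.48 in EpiLC. TET_KO was again highest at each stage, and its contacts at 5 or more numbered 15 against 6 in TET_WT ESC and 30 against 15 in TET_WT EpiLC. Of the 35 Col25a1 contacts 30 reached 5 in TET_KO EpiLC, as did 14 of the 20 of Adamts17 in TET_KO ESC. For both genes the higher TET_KO values are therefore not independent of the listing. Among members with at least 10 contacts and the same sign at both stages, 5 were highest in TET_KO relative to TET_WT by the mean of both stages. In order, they were Adamts17 (0.510), Col13a1 (0.452), Fbn1 (0.380), Col25a1 (0.353) and Col6a1 (0.275). Against DNMT_WT in place of TET_WT, the differences were 0.189 for Col13a1, 0.224 for Fbn1 and −0.0134 for Col6a1.

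Lamc1 ran the other way. Its values were 2.06, 1.85, 2.39 and 1.81 in ESC against 1.98, 2.21, 2.13 and 1.87 in EpiLC, so TET_KO was lowest at both stages, and TET_WT was highest in ESC. TET_KO minus TET_WT was −0.58 in ESC and −0.259 in EpiLC, and contacts at 5 or more numbered 7 against 34 in ESC, with 14 against 21 in EpiLC. Since 34 of the 52 Lamc1 contacts reached 5 in TET_WT ESC, this direction too is not independent of the listing. Mmp14, the membrane-bound metalloproteinase that activates Mmp2, had a mean difference of −0.254, Col5a3 of −0.25, Mmp24 of −0.232 and Col6a4 of −0.191. With DNMT_WT as the reference that of Mmp14 was 0.122, that of Mmp24 −0.153 and that of Lamc1 −0.178, in place of −0.419 against TET_WT.

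**Figure D5:**
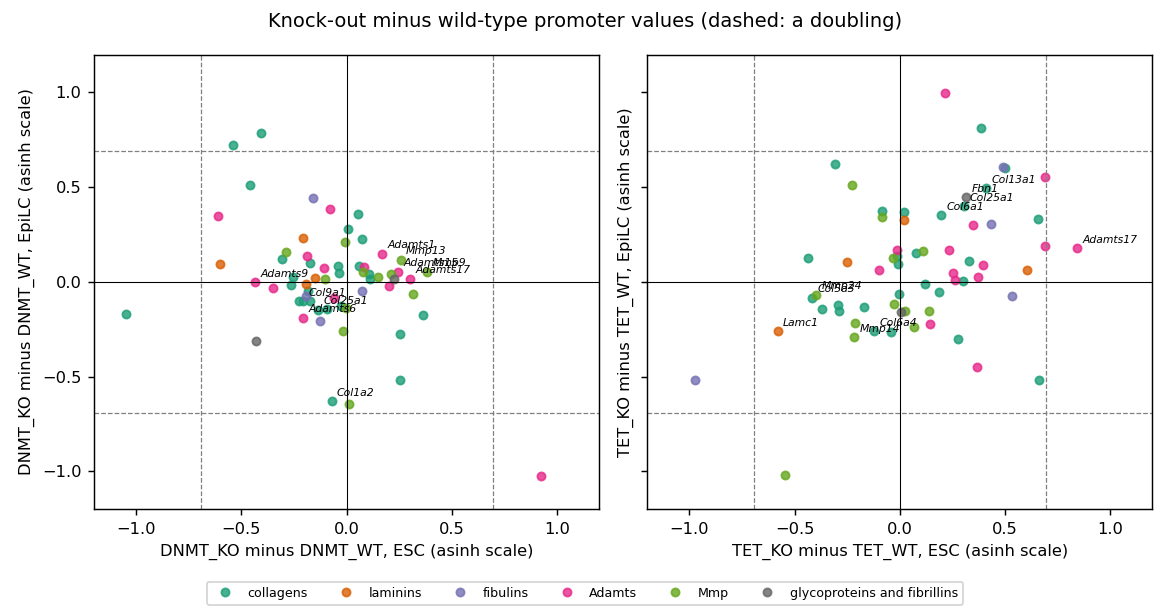
Knock-out minus wild-type promoter value (asinh scale) in ESC (horizontal axis) and EpiLC (vertical axis) for the 63 tested members, DNMT_KO on the left and TET_KO on the right, coloured by family. Dashed lines mark a doubling (0.693). Few points pass a dashed line, and none passes it the same way at both stages.

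At single contacts, those at 5 or more in both columns of a knock-out and under 3 in both of its wild type were called gained, and the reverse lost. This way of counting was settled on with the values in view. DNMT_KO gained 1 member contact and lost 1 of 973, against 0.148% and 0.185% of all contacts. The gain joined Mmp9 and a fragment in Cdh22 281 kb away, at 6.06 in ESC and 5.37 in EpiLC against 1.98 and 1.59 in DNMT_WT. The loss was that of Adamts9 with a fragment 587 kb away, at 1.66 and 2.33 against 5.74 and 5.91. In both TET_WT columns this contact scored 6.40 and 7.79, and in TET_KO 4.35 and 3.65.

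TET_KO gained 7 member contacts and lost 1, against 0.65% and 0.311% of all contacts. The gains were 2 of Adamts17, in 1700112J16Rik and Lysmd4, and 1 each of Col6a3, Mmp19, Adamts1, Adamts10 and Col12a1. The Adamts17 contact in 1700112J16Rik, 378.9 kb away, scored 3.35, 2.63, 0 and 6.76 in ESC against 1.80, 2.45, 2.76 and 5.11 in EpiLC. That of Mmp19, a metalloproteinase of many tissues, joined it to the promoter of Cs, which encodes citrate synthase, at 2.33, 4.26, 1.33 and 6.09 in ESC against 2.05, 2.43, 2.82 and 7.74 in EpiLC. In both cases TET_KO was the only line at 5 or more. The gained contacts of Adamts10 and Col12a1 also reached 5 in DNMT_WT EpiLC, at 6.44 and 7.47. In the remaining gains only TET_KO did. The lost contact, Col12a1 with chr9:78729167-78731668, was low in both knock-out lines, at 4.66, 1.97, 6.08 and 1.83 in ESC against 8.99, 0.840, 7.45 and 1.06 in EpiLC.

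Promoter CpG was set beside the stage differences as a description. The 14 tested members with a CpG ratio of 0.6 or more had a median difference of 0.0539 (8 positive, 6 negative), and the 27 with a lower ratio 0.00720 (14 positive, 13 negative). Over all matched promoters the medians were 0.0231 and −0.0398. Among the printed windows, the 4 promoters that fell ranged from 10 to 44 CpG.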

How the data were processed

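Promoter-capture Hi-C was carried out on 16 samples, 2 replicates in each of 8 groups, and values were deposited as 1 column per group. The scores are CHiCAGO interaction scores that the authors deposited, per the file headers and the sources used here do not say how replicates were combined. The submitters' processing notes name Trim Galore 0.6.5, cutadapt 2.3 and the build GRCm38. For the aligner and the version of CHiCAGO, these sources name none. No depth can be had from these values, so no counting interval is given.

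Promoter fragments were selected by the gene symbol of the captured fragment. Members, classes and the list of other matrix genes were chosen with earlier results of these data known. Columns were quantile-normalised, and a promoter's value is the mean asinh score over its interactions with all 8 scores, for promoters with at least 3 of them (15677 of 20017). Left out were 15344 interactions (5.88%) with fewer scores. Stage was tested with limma 3.58.1 in R 4.3.3 (lmFit, eBayes with a trend, cell line as a block), with Benjamini-Hochberg adjustment over all promoters at 0.05. Contacts within a chromosome were tested likewise. The lines serve as replicates of a stage, and since each knock-out derives from a wild-type line they are not fully independent. Knock-out comparisons subtract columns and have no test. On simulated data the stage fit recovered 98% of differences of −1.5, 80% of −1, 42% of −0.5 and 76% of 0.5, with 12 false calls over 15677 promoters. The simulated columns varied independently and passed no listing threshold, unlike the real ones. The number of false calls in the real data therefore cannot be read from this.

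Named genes are members past the stage threshold; in each family the largest consistent rise and fall and the promoter with most interactions; for each knock-out the 5 largest mean differences each way among promoters with at least 10 interactions whose sign was shared by ESC and EpiLC; contacts past the threshold; Fn1, Dpt, Lum, Fbn1, Fbn2 and the chromosome 9 Mmp cluster; and members in contact with each other. Adamts7, Adamts8, Adamts10, Adamts12, Adamts13, Adamts14, Col1a1, Col3a1, Col6a3, Col6a5, Col9a2, Col10a1, Col14a1, Lama4, Lamb2 and Mmp19 were named after their values were seen. Alternatives covered scaling, minimum number of interactions, distance, missing scores, lines left out, the block and the trend. Promoter sequences are RefSeq's, GRCm38.p6. Figures were drawn with matplotlib 3.10.9.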

Additional observations from a re-analysis of the deposited data

Results flagged for a closer look

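Among 34 named promoters with a value, 4 had a column set apart from the other 3 of its stage by Dixon's criterion, of 68 groups of 4 columns checked; chance flags about 1 in 20 groups. Dpt in DNMT_WT ESC had 2.10 against 1.63 to 1.67 in the other lines. Mmp3 in TET_KO ESC had 1.35 against 1.88 to 1.90, over 3 contacts. Col6a6 in TET_WT ESC had 1.87 against 1.40 to 1.46, also over 3 contacts. Adamts8 in DNMT_WT EpiLC had 2.91 against 2.98 to 2.99, a small gap on a high level.

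For 4 of these 34 promoters the stage difference had one sign in both wild-type lines and the other in both knock-out lines. The difference between wild-type and knock-out lines was not tested. Over all 63 members with a value 5 (7.94%) had such signs, against 7.58% of all promoters. The one outside the named promoters was Col23a1, picked out after its values were seen, with 0.266 and 0.317 in the wild-type lines and −0.263 and −0.258 in the knock-outs, a gap of 0.552. For Lamc1 the stage difference was −0.0824 in DNMT_WT and −0.266 in TET_WT, while it was 0.358 in DNMT_KO and 0.0559 in TET_KO, so the means of the pairs differed by −0.381. For Adamts17 the wild-type lines had 0.265 and 0.529 and the knock-outs −0.0194 and −0.138, a gap of 0.475. For Adamts15 these were 0.158 and 0.201 against −0.0334 and −0.0051, a gap of 0.198. For Col6a6 they were −0.00105 and −0.0854 against 0.302 and 0.478, a gap of −0.433.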

How the results depend on the processing

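No paired analysis was possible because replicates of a group share 1 column of scores and no replicate number is kept. Pairing by cell line is part of the stage test. Depth is unknown, every group is 1 column, and the stage test rests on 4 lines. The main analysis called 1 member promoter higher and 5 lower in EpiLC. Higher and lower calls were 1 and 2 without scaling between columns, 1 and 3 with columns divided by their mean, 0 and 5 with contacts within 1 Mb, and 2 and 2 with at least 10 interactions, where 2 of the 6 promoters remain testable. They were 0 and 1 with missing scores set to 0, without the line block or without the trend, and in these 3 settings the call was Dpt. No call in either direction was left with promoters of 1 interaction included, with a count of contacts scoring 5 or above as the value, or with the wild-type lines only, that is 0 and 0. Leaving out 1 line gave 0 to 1 higher and 0 to 3 lower. All promoters lost calls too, from 1391 to 21 with promoters of 1 interaction, to 29 with the wild-type lines only, to 25 without DNMT_KO and to 0 of 15677 with the count of contacts; the cause was not tested. Every called promoter that could be fitted kept its direction in all 14 settings. The 1 higher member contact was called in 0 settings that leave out a line and in 0 without the block (adjusted p = 0.065), and with contacts within 1 Mb 1 contact was lower. 

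For the knock-outs, the main counts higher and lower were 1 and 1 (DNMT_KO, ESC), 2 and 1 (DNMT_KO, EpiLC), 1 and 1 (TET_KO, ESC) and 2 and 1 (TET_KO, EpiLC). Without scaling, 3 were lower in DNMT_KO ESC and 5 higher in TET_KO ESC. With at least 10 interactions all counts were 0 except 1 higher in TET_KO ESC. Within 1 Mb, DNMT_KO ESC had 0 and 0, DNMT_KO EpiLC 0 lower and TET_KO ESC 3 higher. With the other wild-type line as reference, DNMT_KO had 0 higher in ESC and 0 higher and 2 lower in EpiLC, and TET_KO had 3 higher in ESC and 4 higher and 3 lower in EpiLC. That reference also turned the sign for Col9a1 in DNMT_KO (0.134) and for Mmp14 (0.122) and Col6a1 (−0.0134) in TET_KO. Col13a1 in TET_KO moved from 0.452 to 0.189, and the other 76 single-gene values for the knock-outs moved by less than 0.247, the SD over promoters of the difference between the wild-type lines.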
